A study of Mus musculus with 8 samples.

Results

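The subunits of the oxidative phosphorylation machinery were followed at the transcript level in mouse macrophages. Members were all gene symbols of the count tables that begin with Nduf followed by a, b, c, s or v and a digit, the symbols Sdha to Sdhd, and those that begin with Uqcr, with Cox4 to Cox8 or with Atp5. This gave 84 members of 24421 listed genes, namely 37 for complex I, 4 for complex II, 8 for complex III, 18 for complex IV and 17 for complex V. The complex was read from the symbol alone, and Atp5s and Atp5sl stand under complex V on that ground. Whether each member codes for a structural subunit of its complex was not checked. After the filter on low counts, 79 of the 84 members were tested, among 13821 genes. The data were 8 RNA-seq libraries of primary macrophages on a normal diet. They fell into WT (wild type, 3 libraries), LysM-DKO as labelled (3 libraries), which the design text calls epsin double knockouts, and ABCG1KO (2 libraries). LysM is the common name of a Cre driver from the lysozyme 2 gene of myeloid cells, and the labels do not spell it out further. Age, sex, strain, the tissue of origin and any pooling of animals are not given in the sources used here, nor is it said that libraries of a group came from separate animals. The p-values therefore measure the spread between these libraries, which may be technical in part.

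Oxidative phosphorylation takes place in the inner mitochondrial membrane. Complexes I and II pass electrons from NADH and succinate to ubiquinone, complex III passes them on to cytochrome c, and complex IV hands them to oxygen. Complexes I, III and IV pump protons, and complex V, the ATP synthase, uses the proton gradient to make ATP. All 4 subunits of complex II and most subunits of the other complexes are coded in the nucleus, and many of the small ones have intronless gene copies elsewhere in the genome. Macrophages lean on this machinery to a degree that varies with their activation state. The subunits coded by the mitochondrial genome were not analysed here.

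Counts in genes ranged from 29567615 to 41888516 per library. Reads aligned to more than 1 place made up 2.65% to 3.01% of counted reads in WT and LysM-DKO, and 6.74% and 6.93% in the ABCG1KO libraries. Reads outside annotated genes made up 4.27% to 6.07% in the former and 10.2% and 13.8% in the latter. The targeted gene Abcg1 was lower in ABCG1KO than in WT by 2.52 on the log2 scale (value -2.52, SE 0.37, edgeR adjusted p 0.00414, Benjamini-Hochberg). In the libraries labelled LysM-DKO, Epn1 was at -0.30 (SE 0.13, adjusted p 0.430) and Epn2 at 0.20 (SE 0.36, adjusted p 0.852) against WT by edgeR with Benjamini-Hochberg adjustment, so the epsin counts did not check that label, and every direction given below for LysM-DKO rests on it. Xist and Ddx3y showed the female pattern in WT and in LysM-DKO 2 and 3, and the male pattern in LysM-DKO 1 and both ABCG1KO libraries, so in ABCG1KO against WT genotype and sex cannot be told apart. The 6 macrophage markers summed to 17777 to 20996 CPM (counts scaled to the size of the library) in WT, 10771 to 12730 in LysM-DKO and 18020 to 21470 in ABCG1KO, so that LysM-DKO lay below both other groups. These 6 include Lyz2, the lysozyme 2 gene of the LysM driver, and its part in the sum was not tested. The 3 fibroblast markers summed to 629 to 831 CPM in WT, 580 to 1402 in LysM-DKO, and 124 to 1066 in ABCG1KO, the 4 mast cell markers reached 31.5 CPM in ABCG1KO and at most 2.54 elsewhere, and the 3 erythroid markers had no counts. The 4 B cell markers summed to 2.51 to 29.5 CPM in WT, 0.0242 to 1.35 in LysM-DKO and 2.48 to 14.8 in ABCG1KO. The 2 mesothelial markers reached 30.9 CPM, the 2 neutrophil markers 5.71, the 5 muscle markers 4.37 and the 3 T cell markers 1.24. The part of these marker levels in the results was not tested.

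Levels of different members were compared per length, as TPM values, which are counts divided by the length of 1 annotated transcript per gene and scaled to the library. In WT the highest member was Cox4i1, the housekeeping form of cytochrome c oxidase subunit 4, at 827 ± 50.7 TPM (SD, n = 3). It was followed by Atp5b, the catalytic beta subunit of ATP synthase, at 588 ± 71.4 TPM, and by Cox6a1, a small nuclear-coded subunit of complex IV, at 478 ± 40.0 TPM. The WT ranges of these 3 genes did not overlap, with 780 to 881, 534 to 669 and 445 to 522 TPM. Atp5h, the d subunit of the peripheral stalk of ATP synthase, came next at 449 ± 60.1 TPM, and its range of 399 to 516 TPM overlapped that of Cox6a1. Of the 10 highest members per length, 6 were also among the 10 highest in CPM, without division by length. All 84 members together took 0.629% to 0.781% of the scaled counts in WT, 0.530% to 0.615% in LysM-DKO, and 0.635% and 0.507% in the ABCG1KO libraries.

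**Figure D1:**
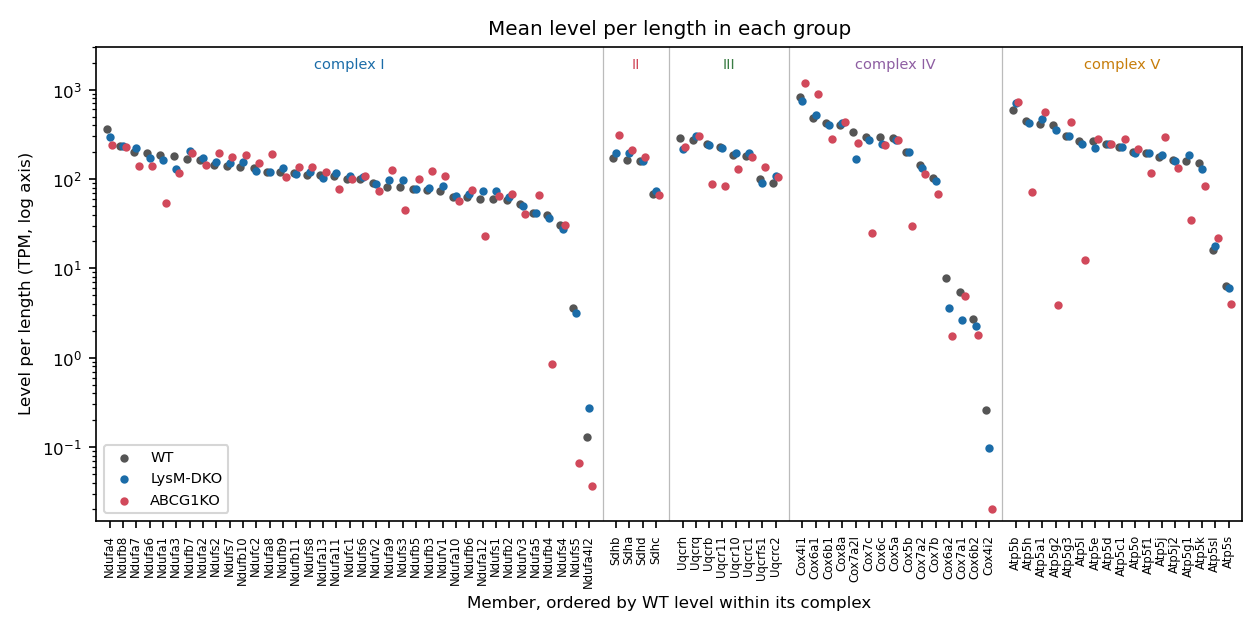
Mean level per length (TPM, log axis) of the 81 members detected in WT, ordered within each complex by the WT mean, with 1 point for each group. Cox4i1 stood highest at 827 TPM in WT, and the ABCG1KO points of Atp5g2, Ndufb4, Atp5l, Cox7c and Cox5b lay far below the others. A mean of 0 is drawn at 0.02 TPM.

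Subunits with several isoforms were represented by the form that most tissues use. Cox4i2, the form of lung and of oxygen-regulated cells, was at 0.258 ± 0.104 TPM (SD, n = 3) in WT, set against 827 TPM for Cox4i1. Cox6a2 and Cox7a1 are the forms of heart and skeletal muscle. They were at 7.82 ± 8.57 and 5.5 ± 1.96 TPM in WT, while their counterparts Cox6a1 and Cox7a2 were at 478 ± 40.0 and 143 ± 8.17 TPM. Cox6a2 had 11, 228 and 71 counts in the 3 WT libraries, so that its mean rested largely on WT 2. Cox6a2 also overlaps exons of the listed gene Itgad, and with the strand setting not given, reads of this neighbour cannot be told apart. Cox6b2, a testis form, was at 2.71 ± 0.511 TPM and Cox6b1 at 423 ± 54.2 TPM. Cox8a was at 406 ± 17.4 TPM, while Cox8b, Cox8c and Cox7b2 had 0 counts in all 8 libraries, which allows up to 0.0708 to 0.0941 CPM in each. Cox7b was at 103 ± 21.5 TPM. Ndufa4l2, which is induced by hypoxia in many cells, had at most 8 counts in any library, and Ndufa4 was at 359 ± 32.1 TPM. Ndufa4 carries a complex I symbol, but its protein is now counted with complex IV. The last-placed detected members with a test were Cox6b2, Ndufs5 at 3.61 ± 0.453 TPM, and Cox7a1, with Cox6b2 at 2.22 to 3.24 TPM and Ndufs5 at 3.25 to 4.12 TPM just apart. Ndufs5, an accessory subunit of complex I, had 18 to 50 counts in the 6 WT and LysM-DKO libraries, and 41.2% of its transcript is shared with a copy.

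In the libraries labelled LysM-DKO, no member was called against WT. The edgeR quasi-likelihood test called 0 of 79 members at a Benjamini-Hochberg adjusted p under 0.05, while 0.0362% of all genes were called. At an unadjusted p under 0.05 there were 7 members, all lower in LysM-DKO, against 11.7% of all genes. The members nevertheless lay on the lower side as a group: 72 of 79 had a log2 fold change below 0, with a median of -0.25, whereas the median of all genes was 0.02. Several related gene lists, given further below, had medians under 0 as well, so this side was not particular to the members. The summed macrophage and B cell markers given above were also lower in every LysM-DKO library than in every WT library. Taken singly, this held for 1 of the 6 macrophage markers and 3 of the 4 B cell markers. The macrophage markers, with Lyz2 of the driver among them, ran from -1.09 to 0.50 on the log2 scale, with a median of -0.09. The part of these markers in the members' values was not tested. For 28 of 79 members every LysM-DKO library was below every WT library in CPM, and this was so for 9.98% of all genes. No member lay the other way, while 1522 of all 13821 genes did. The median of the members against the WT mean was 0.20 in WT 1, -0.08 in WT 2 and -0.10 in WT 3. It was -0.19, -0.38 and -0.17 in LysM-DKO 1 to 3, so the 2 groups did not overlap on this measure, by a margin of less than the range within WT. The median fold change was -0.14 without WT 1 and -0.05 with offsets for GC content and transcript length. With library size as the only scaling it was -0.10, where the median of all genes moved to 0.17.

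**Figure D2:**
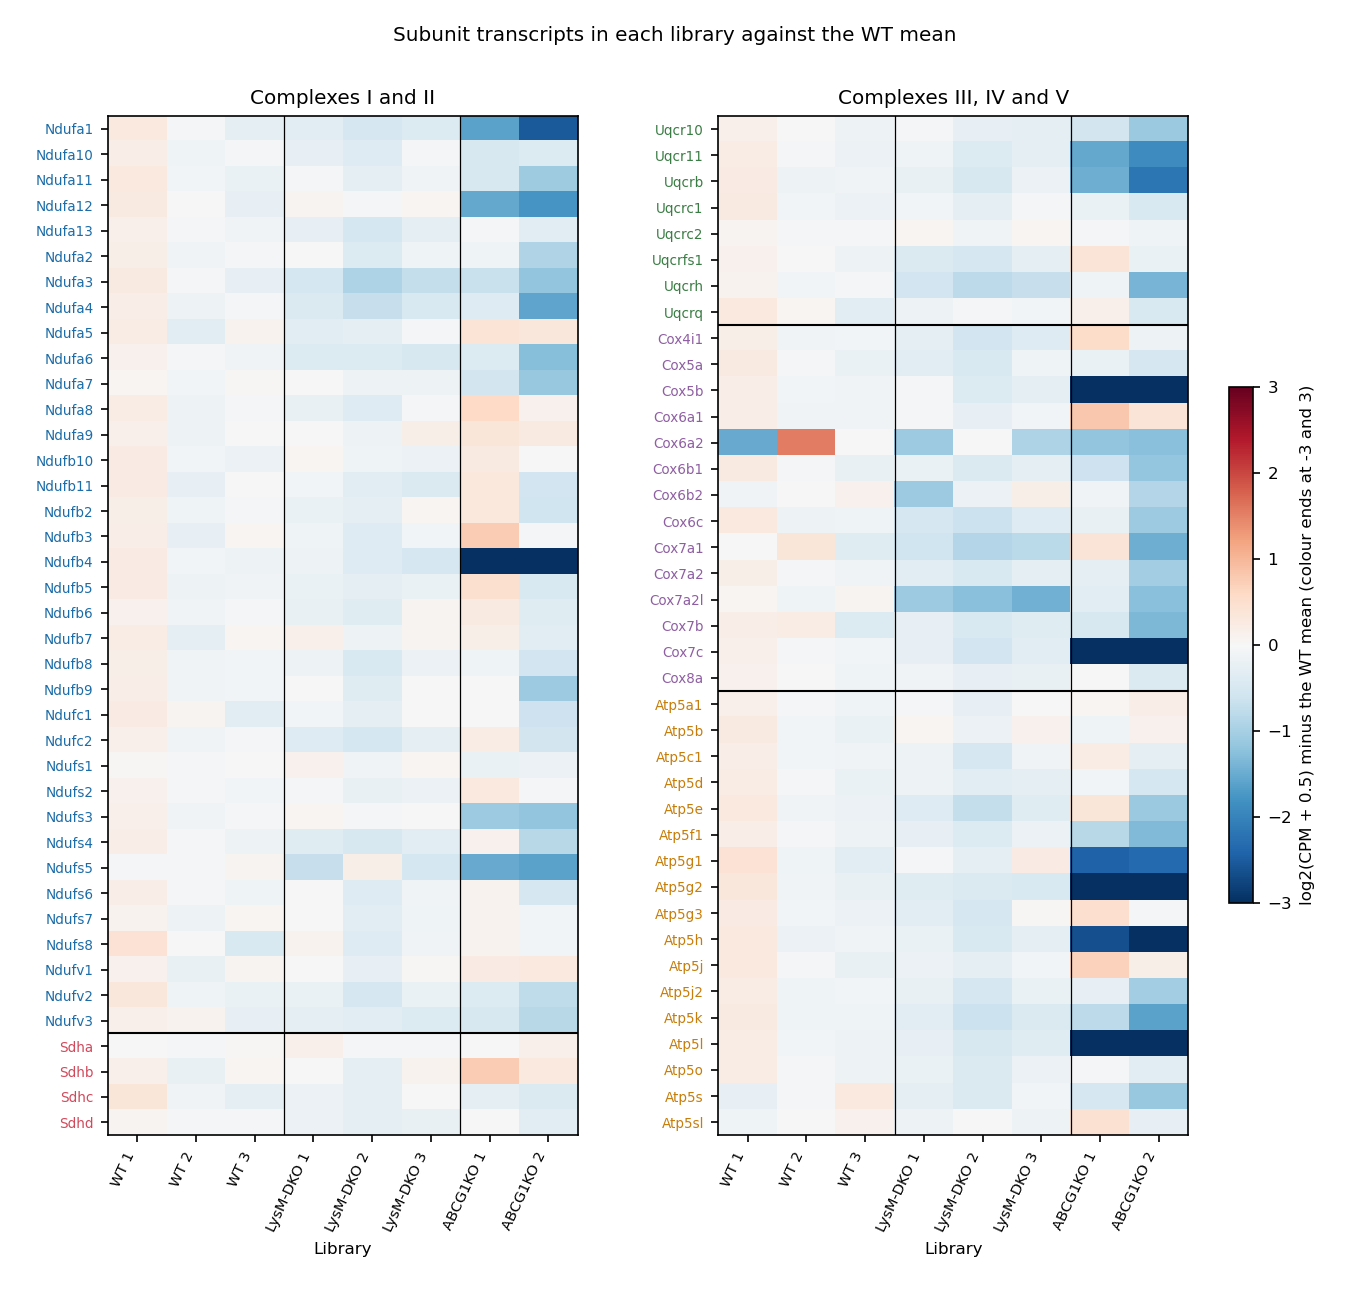
Level of the 79 tested members in each of the 8 libraries, as log2(CPM + 0.5) minus the WT mean, with members grouped by complex and the colour scale ending at -3 and 3. The LysM-DKO columns are pale, while in both ABCG1KO columns a few members such as Ndufb4, Cox5b, Cox7c, Atp5g2 and Atp5l reach the end of the scale beside members close to 0.

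By complex, the medians in LysM-DKO against WT were -0.20 for complex I (36 tested), -0.13 for complex II (4), -0.23 for complex III (8), -0.38 for complex IV (14) and -0.27 for complex V (17). With the GC content and length offsets, complexes I, II and III turned to 0.02, 0.03 and 0.01, while complexes IV and V stayed below 0 at -0.11 and -0.09. Without WT 1 the medians were -0.10, 0.0104, -0.13, -0.30 and -0.17 for complexes I to V. All 14 complex IV members had a fold change below 0. Ndufs1, the largest subunit of complex I, was at 85.1, 80.4 and 84.3 CPM in WT and at 91.4, 76.9 and 86.7 CPM in LysM-DKO, which gave 0.03 on the log2 scale (SE 0.11). The groups overlapped. Ndufv2, another core subunit of complex I, was at -0.31 (SE 0.18). The catalytic flavoprotein of complex II, Sdha, was at 253, 246 and 258 CPM in WT and at 278, 240 and 245 in LysM-DKO. Of the LysM-DKO libraries, 1 lay above the WT range and 2 lay below it, and the log2 difference of 0.01 (SE 0.12) changed its sign in several alternatives. Uqcrc2, a core protein of complex III, had a log2 fold change that rounds to 0 (92 ± 4.83 CPM in WT and 92 ± 5.74 in LysM-DKO, SD, n = 3), and Atp5b likewise had 609 ± 105 and 609 ± 62.7 CPM.

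The member with the smallest p in this comparison was Cox7a2l, which resembles a complex IV subunit and joins complexes III and IV into supercomplexes. It was at 201, 176 and 205 CPM in WT, at 91.1, 81.1 and 71.0 in LysM-DKO, and at 156 and 80.7 in ABCG1KO. Every LysM-DKO library was below every WT library by a wide gap, and the ABCG1KO libraries were apart from each other. LysM-DKO was thus at -1.26 on the log2 scale against WT (SE 0.23, edgeR adjusted p 0.173, Benjamini-Hochberg), or 41.8% of WT, and it did not pass the threshold. It did pass with DESeq2, which called 2.27% of all genes, at an adjusted p of 0.000132. It also passed when only WT and LysM-DKO were fitted (edgeR adjusted p 0.0449) and without ABCG1KO 1 (edgeR adjusted p 0.0478), and over all alternatives the adjusted p ran from 0.000132 to 0.513. Cox7a2l was the only member called in LysM-DKO against WT under any alternative run. Of its transcript, 19.8% is shared with a copy, Gm6969.

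The other 6 members at an unadjusted p under 0.05 were Ndufa3, Uqcrh, Cox6c, Atp5g2, Uqcrfs1 and Ndufa13, and none was called. Ndufa3, an accessory subunit of complex I, was at 59.8, 48.1 and 41.3 CPM in WT and 34.1, 25.6 and 30.0 CPM in LysM-DKO. This amounted to -0.73 on the log2 scale (SE 0.20, edgeR adjusted p 0.342, Benjamini-Hochberg), with no overlap. Uqcrh, the hinge protein that helps cytochrome c dock on complex III, was at 91.9, 79.9 and 83.5 CPM in WT and 56.8, 49.5 and 52.2 CPM in LysM-DKO. This gave -0.69 (SE 0.28, edgeR adjusted p 0.409, Benjamini-Hochberg), again without overlap. Cox6c, a small subunit of complex IV, was at -0.53, Atp5g2 at -0.44, the Rieske iron-sulphur protein gene Uqcrfs1 at -0.40 and Ndufa13 at -0.35. Ndufa3 and Ndufa13 overlap exons of the listed genes Tfpt and Tssk6, and with the strand setting not given, reads of such neighbours cannot be told apart.

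In ABCG1KO, 20 members fell and 1 rose against WT. The called members belonged to complexes I, III, IV and V, and their log2 fold changes ran from -7.00 for Atp5g2 to 0.60 for Cox6a1. Ndufs3, a core subunit of complex I, was among those that fell (-1.16), while the core subunits Atp5a1, Atp5b, Ndufs1 and Uqcrc2 were not called. Whether the ABCG1KO libraries were aligned and counted with the same settings as the other 6 is not given in the sources used here. With their higher shares of reads aligned to more than 1 place and of reads outside genes, a difference in processing and the genotype cannot be told apart, above all for members with copies elsewhere in the genome. The edgeR test with Benjamini-Hochberg adjustment called 20 of 79 members lower, against 8.83% of all genes, and 1 higher, against 7.21%. The median of the members was -0.34, with 61 of 79 below 0, and the median of all genes was 0.01. The median rested on 1 library: it was -0.64 without ABCG1KO 1 and -0.13 without ABCG1KO 2, beside -0.01 and -0.04 for all genes. With library size as the only scaling the members' median was -0.11 and 17 fell while 6 rose. Of all 13821 genes, 856 fell and 2074 rose with that scaling, and their median moved to 0.25. With the GC content and length offsets the members' median was -0.17, and 15 fell while 4 rose, beside 893 and 812 of all 13821 genes.

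By complex, complex I had 8 of 36 tested members lower and a median of -0.24. Complex II had 0 of 4 called and a median of -0.04, which turned to as high as 0.20 in the alternatives. Complex III had 3 of 8 lower with a median of -0.49. Complex IV had 3 of 14 lower and 1 higher with a median of -0.67, and complex V had 6 of 17 lower with a median of -0.30. Without ABCG1KO 1 the medians were -0.59, -0.82, -1.23 and -1.07 for complexes I, III, IV and V. Without ABCG1KO 2 they were -0.0096, -0.17, -0.27 and -0.15, and without WT 1 that of complex V was -0.17. The differences between complexes were not tested.

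The rule for these members names gene copies and a possible loss of their reads in ABCG1KO, so the sequence that each member shares with other loci was computed. Such a loss was thus foreseen from these data, and the split below describes it without being independent support. Each member's annotated transcript was cut into words of 50 bases, and the share of words found in transcripts of other loci was counted. Of the 84 members, 49 shared no word, 22 shared under 20% and 13 shared 20% or more. In ABCG1KO against WT, 12 of the 13 members with 20% or more were called lower, 3 of the 22 with less were called lower and 1 higher, and 5 of the 44 tested members with none were called lower. The medians were -2.96 (the same with Ndufs5, which was at the floor, set to its bound), -0.25 and -0.19. The cut at 20% was not varied. Under it, Cox7a2l (19.8% shared), Atp5o (19.1%) and Ndufs6 (14.6%) were not called, Cox6a1 (12.3%) rose and Uqcr11 (10.9%) fell. Among all genes of the same classes, 334 of 770 were lower and 42 higher at 20% or more, with a median of -0.91. Under 20%, 245 of 2887 were lower and 208 higher, with a median of 0.02. At none, 636 of 10063 were lower and 740 higher, with a median of 0.04. Over the 79 members the Spearman correlation of the log2 fold change with the shared share was -0.45, and it was -0.10 in LysM-DKO against WT. These are descriptions across genes of the same libraries. In LysM-DKO the 13 members with 20% or more had a median of -0.34, and 0 were called. Of all 770 genes of that class, 0 were called there, 512 lay below 0 and 258 above, with a median of -0.16.

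**Figure D3:**
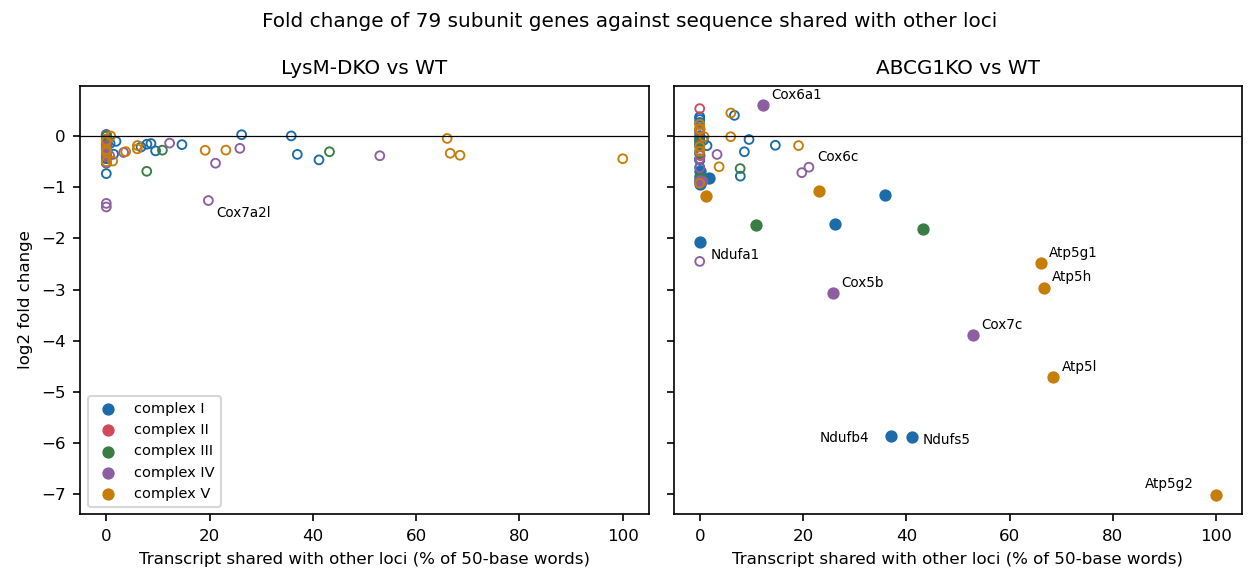
Log2 fold change of the 79 tested members (vertical axis) against the share of their transcript found at other loci (horizontal axis, % of 50-base words), in LysM-DKO and in ABCG1KO against WT, coloured by complex. Filled points passed the edgeR test. In ABCG1KO 12 of the 13 members at 20% or more were filled and below 0, and in LysM-DKO no point was filled.

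A few members picked by hand are shown, with the copies that had the fewest mismatches, so their closeness need not be typical. The proton-carrying ring of ATP synthase is built from subunit c, and 3 genes code for the same mature protein with different leader peptides. The last 75 coding bases before the stop codon (mm10, read on the gene's strand) lie at chr11:96073107-96073181 in Atp5g1, chr15:102663017-102663091 in Atp5g2 and chr2:73908596-73908670 in Atp5g3. They code for the same 25 residues, and capitals mark the bases that differ from Atp5g1, 10 in Atp5g2 and 14 in Atp5g3.
Atp5g1: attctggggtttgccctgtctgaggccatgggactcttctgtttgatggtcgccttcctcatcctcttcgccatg
Atp5g2: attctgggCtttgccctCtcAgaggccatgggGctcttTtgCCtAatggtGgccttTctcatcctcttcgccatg
Atp5g3: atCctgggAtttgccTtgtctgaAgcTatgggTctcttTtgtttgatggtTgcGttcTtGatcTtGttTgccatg
The 75 bases of Atp5g2 stand without a mismatch in 2 processed pseudogenes, Gm10175 at chr7:23946795-23946869 and Gm10231 at chr17:5816203-5816277, and 100% of the words of the Atp5g2 transcript are shared. Atp5g1 shares 66.0% with 3 copies, and Atp5g3 shares none.

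Cox7c, a small subunit of complex IV, has its last 75 coding bases at chr13:86045756-86045830, and they stand unchanged in Gm10012 at chr17:25901976-25902050. Another copy of Cox7c, Gm12338, is not shown here.
Cox7c: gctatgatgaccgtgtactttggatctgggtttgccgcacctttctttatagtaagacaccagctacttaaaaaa
The last 75 coding bases of Cox5b and Atp5l likewise had no mismatch to Gm11273 on chromosome 13 and Atp5l-ps1 on chromosome 7. Atp5l had 13 loci that share words with it.

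The counts of these members differed between ABCG1KO and the other 2 groups by far more than the spread within groups. Atp5g2 was at 119, 87.9 and 80.5 CPM in WT, 73.6, 69.3 and 68.6 in LysM-DKO, and 0.784 and 0.708 in ABCG1KO. In ABCG1KO against WT this was -7.00 on the log2 scale (SE 0.26, edgeR adjusted p 7.87e-06, Benjamini-Hochberg), or 0.779% of WT. Ndufb4, an accessory subunit of complex I, had 827, 692 and 703 counts in WT, 758, 638 and 564 in LysM-DKO, and 18 and 7 in ABCG1KO (-5.85, SE 0.49, edgeR adjusted p 0.000205). Both genes were nearly absent from the ABCG1KO counts and present in all 6 other libraries, where every LysM-DKO library was below every WT library for Atp5g2.

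Atp5l, the g subunit at the base of ATP synthase, was at 91.7, 73.8 and 70.4 CPM in WT, 65.6, 55.7 and 60.6 in LysM-DKO, and 4.45 and 1.60 in ABCG1KO (-4.71, SE 0.42, edgeR adjusted p 0.000342). Cox7c was at 95.7, 81.9 and 80.4 CPM in WT, 72.1, 57.2 and 68.4 in LysM-DKO, and 8.06 and 3.66 in ABCG1KO (-3.88, SE 0.34, edgeR adjusted p 0.000272). Cox5b, the zinc-binding subunit of complex IV, was at 105, 86.4 and 85.8 CPM in WT, 89.6, 69.3 and 76.1 in LysM-DKO, and 11.2 and 10.9 in ABCG1KO (-3.06, SE 0.18, edgeR adjusted p 3.18e-05). In each of these 3 genes the ABCG1KO libraries lay below all 6 others, and the p-values were Benjamini-Hochberg adjusted over all genes tested. Atp5h followed at -2.96 (66.6% shared), Atp5g1 at -2.48, Uqcrb at -1.81 (43.2%), Ndufa12 at -1.71 (26.2%), Ndufs3 at -1.16 (35.8%) and Atp5f1 at -1.08 (23.2%). Uqcrb, Ndufs3 and Atp5f1 overlap exons of the listed genes Gm10767, Kbtbd4 and Wdr77, and the part of this overlap was not tested. Ndufs5 had 33, 35 and 43 counts in WT and 1 and 0 in ABCG1KO, too few for a fold change. Cox6c, at 21.1%, was the only member of this class that was not called (-0.61, SE 0.26, edgeR adjusted p 0.149).

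Of the 3 subunit c genes, Atp5g1 and Atp5g2 fell in ABCG1KO and Atp5g3 was not called, and the difference between the genes was not tested. Atp5g1 was at 67.5, 45.1 and 40.0 CPM in WT, 48.4, 40.6 and 58.8 in LysM-DKO, and 8.75 and 9.41 in ABCG1KO. Atp5g3 was at 137, 109 and 102 CPM in WT, 90.5, 80.6 and 117 in LysM-DKO, and 163 and 110 in ABCG1KO (0.23, SE 0.23, edgeR adjusted p 0.534, Benjamini-Hochberg), and its groups overlapped. Per length, Atp5g3 made up 33.4% to 39.3% of the subunit c transcripts in WT and LysM-DKO, and 93.3% and 89.9% in ABCG1KO. Atp5g2 made up 37.2% to 46.9% in WT and LysM-DKO, and 0.726% and 0.936% in ABCG1KO. The sum of the 3 genes was 324, 242 and 223 CPM in WT, 213, 190 and 245 in LysM-DKO, and 173 and 120 in ABCG1KO.

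**Figure D4:**
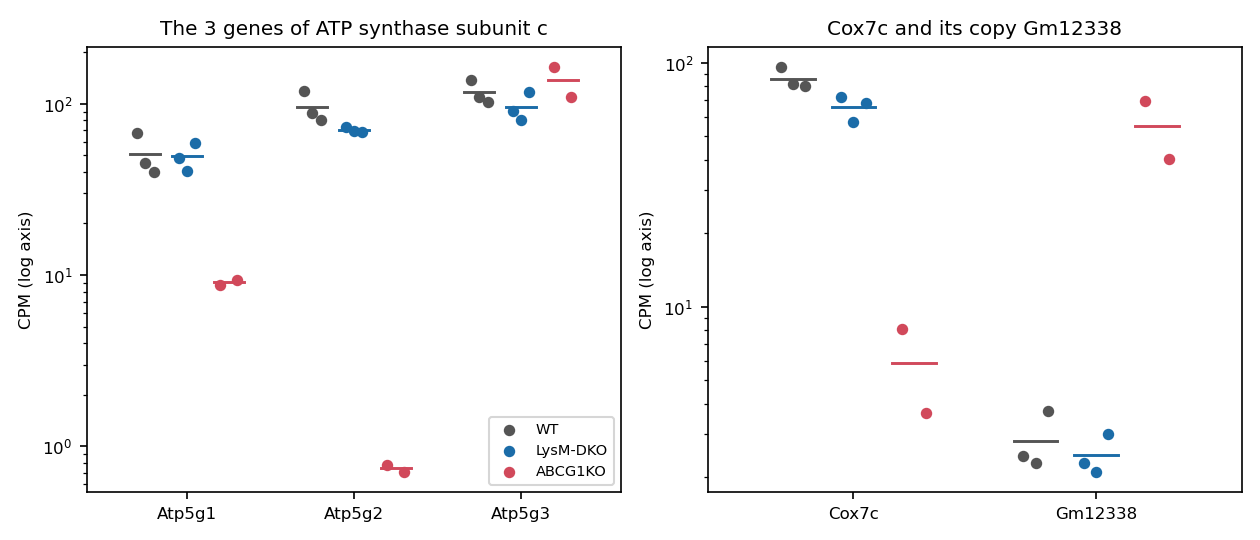
CPM (log axis) of the 3 subunit c genes (left) and of Cox7c and its copy Gm12338 (right), with 1 point per library and a bar at the mean of each group. In ABCG1KO, Atp5g1 and Atp5g2 lay below all other libraries while Atp5g3 did not, and Cox7c was low where Gm12338 was high.

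For 4 loci that share words with a member, the count tables hold counts of their own. They are all such loci found by name in the count tables, and they were described after their values were seen. Gm12338, a processed pseudogene on chromosome 11 that holds 29.1% of the Cox7c words, had 83, 83 and 144 counts in WT, 94, 86 and 120 in LysM-DKO, and 2227 and 1710 in ABCG1KO. In ABCG1KO against WT it rose by 4.29 on the log2 scale (SE 0.33, edgeR adjusted p 0.000129, Benjamini-Hochberg), where Cox7c itself fell. Gm10012, another copy of Cox7c, had 39 to 42 counts in WT and 3 and 0 in ABCG1KO. A further locus with 1.22% of the Cox7c words, Gm20091, was not found by name in the count tables. Summed over Cox7c, Gm12338 and Gm10012, the level was 99.3, 85.3 and 85.1 CPM in WT, 75.4, 60.03 and 72.2 in LysM-DKO, and 78.0 and 43.99 in ABCG1KO. These copies made up 3.69% to 5.56% of that sum in WT and LysM-DKO, and 89.7% and 91.7% in ABCG1KO.

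BC002163, the copy of Ndufs5 on chromosome 16, had 60 to 81 counts in WT and 354, 38 and 323 in LysM-DKO. It had 695 and 828 counts in ABCG1KO, a rise against WT of 3.39 (SE 0.74, edgeR adjusted p 0.0207, Benjamini-Hochberg) on the log2 scale. Ndufs5 and BC002163 summed to 3.11, 2.62 and 3.21 CPM in WT and to 21.8 and 19.5 CPM in ABCG1KO. Gm15694, which shares 0.209% of the words of Ndufa7, had 2 to 13 counts outside ABCG1KO and 25 and 31 within it, and was not called. For Cox7c, most of the summed counts thus stood at the member in WT and at the copies in ABCG1KO. The sum itself was not tested: in ABCG1KO 1 it was 78.0 CPM, near the lower WT values, and in ABCG1KO 2 it was 43.99 CPM. For the other members with copies, no copy was found by name in the count tables, so counts at those copies were not analysed.

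Of the 44 tested members with no shared sequence, 5 fell in ABCG1KO, namely Ndufa1, Ndufa3, Cox6b1, Uqcr10 and Ndufv3. Ndufa1, an X-linked subunit needed to build complex I, was at 51.3, 40.6 and 34.2 CPM in WT, 32.7, 29.2 and 31.1 in LysM-DKO, and 13.2 and 6.86 in ABCG1KO. The change was -2.07 on the log2 scale (SE 0.30, edgeR adjusted p 0.00375, Benjamini-Hochberg), with no overlap, and it was still called when only genes with under 1% shared sequence were fitted. Cox6b1, which lies where complex IV forms dimers, was at 169, 136 and 119 CPM in WT and 91.1 and 62.5 in ABCG1KO (-0.88, SE 0.21, edgeR adjusted p 0.0276). Ndufa3 was at -0.93, Uqcr10, a small subunit of complex III, at -0.82, and Ndufv3, an accessory subunit beside the NADH-binding site, at -0.68. These 4 lost their call in several alternatives, with the GC content and length offsets and without ABCG1KO 2 among them.

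Transcript length moved with these values. The 18 tested members with no shared sequence and a transcript of up to 700 bases had a median of -0.55 in ABCG1KO against WT, all 18 below 0, and 4 were called lower. The 26 longer ones had a median of 0.04, with 12 below 0 and 1 called lower. The Spearman correlation with transcript length over these 44 members was 0.43 in ABCG1KO and 0.48 in LysM-DKO, both against WT and thus with shared control libraries. In LysM-DKO the medians were -0.38 and -0.19. The part of length in these results was not tested further than by the offsets given above.

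Of the members with a shared share under 20%, Uqcr11, Atp5k and Ndufa7 fell in ABCG1KO. Uqcr11, the smallest subunit of complex III, was at 63.8, 51.7 and 48.3 CPM in WT, 49.6, 40.6 and 45.1 in LysM-DKO, and 18.4 and 14.4 in ABCG1KO (-1.74, SE 0.19, edgeR adjusted p 0.000896, Benjamini-Hochberg), and 10.9% of it is shared. Atp5k, the e subunit of ATP synthase, was at -1.18, and Ndufa7, an accessory subunit of complex I, at -0.82. Both lost their call when only WT and ABCG1KO were fitted and without WT 1. Ndufa7 also lost it with the GC content and length offsets. Cox6a1 was the only member that rose. It was at 169, 135 and 137 CPM in WT, 141, 123 and 138 in LysM-DKO, and 255 and 191 in ABCG1KO, so that both ABCG1KO libraries lay above all others. The change was 0.60 on the log2 scale (SE 0.17, edgeR adjusted p 0.0499, Benjamini-Hochberg), and the adjusted p ran from 0.0108 to 0.304 over the alternatives.

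The 4 genes of complex II, which is also the succinate dehydrogenase of the citric acid cycle, were not called in any comparison. Sdha was at 252 and 281 CPM in ABCG1KO, against 246 to 258 in WT (0.08, SE 0.14). Sdhb, the iron-sulphur subunit, was at 117, 90.9 and 110 CPM in WT, 105, 85.3 and 113 in LysM-DKO, and 179 and 129 in ABCG1KO. Both ABCG1KO libraries lay above all others, and the difference of 0.54 on the log2 scale (SE 0.19, edgeR adjusted p 0.0994, Benjamini-Hochberg) did not pass the threshold. It passed in 3 alternatives, namely with library size as the only scaling, with the replicate block and with the offsets. Sdhc and Sdhd, the membrane anchors, were at -0.38 (SE 0.20) and -0.16 (SE 0.14). In LysM-DKO against WT, Sdhb was at -0.07, Sdhc at -0.18 and Sdhd at -0.24.

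LysM-DKO against ABCG1KO compares the 2 altered genotypes without the WT libraries, which still entered the estimate of the spread. The edgeR test with Benjamini-Hochberg adjustment called 15 of 79 members higher in LysM-DKO, against 7.76% of all genes, and 1 lower, against 5.64%. The median was 0.08, with all genes at 0.03, and its sign depended on the libraries and the scaling: it was 0.36 without ABCG1KO 1, -0.13 without ABCG1KO 2 and -0.0017 with library size as the only scaling. Of the 13 members with 20% or more shared sequence, 12 were higher in LysM-DKO, with a median of 2.63 over the 13. Of all 770 genes of that class, 291 were higher and 41 lower, with a median of 0.80. Atp5g2 was higher by 6.56 (SE 0.25, adjusted p 1.06e-05), Ndufb4 by 5.49 (SE 0.48, adjusted p 0.0003), Atp5l by 4.34 (SE 0.42, adjusted p 0.000542), Cox7c by 3.50 (SE 0.33, adjusted p 0.000479) and Cox5b by 2.82 (SE 0.18, adjusted p 5.05e-05) on the log2 scale. Cox6a1 was lower in LysM-DKO, at -0.74 (SE 0.17, adjusted p 0.0295). With only genes under 1% shared sequence in the fit, Ndufa1 was the sole member called, among 49 tested. Of all 11319 genes in that fit, 553 were higher in LysM-DKO and 459 lower. Ndufa1 is X-linked, and LysM-DKO 2 and 3 showed the female pattern where both ABCG1KO libraries showed the male one. Genotype, sex and a difference in processing cannot be fully told apart in this comparison.

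Other genes of the mitochondrial machinery were read from lists set out beside the members. In LysM-DKO against WT, 0 genes were called by edgeR in any of the 7 lists. The median there was -0.14 for mitochondrial ribosomal proteins (60 of 77 below 0) and -0.29 for carriers and pores (7 of 7). It was -0.21 for subunits and electron carriers outside the symbol rule (8 of 10) and -0.06 for assembly factors. Citric acid cycle enzymes were at -0.03, ubiquinone synthesis at 0.03 and regulators of mitochondrial gene expression at 0.17. In ABCG1KO, of 43 tested assembly factors, which build the complexes without staying in them, 1 rose (Sdhaf1, 0.98) and 2 fell (Sdhaf2 at -0.63 and Surf1 at -0.70), with a median of -0.11. The 4.65% that fell stood beside 8.83% of all genes, and the 2.33% that rose beside 7.21%, which are also the shares to set beside the lists that follow. Of 13 citric acid cycle enzymes and of 10 genes of ubiquinone synthesis, 0 were called, with medians of -0.07 and 0.07. Of 10 subunits and electron carriers outside the symbol rule, 4 fell. Cycs, which codes for cytochrome c, was at 41.9, 33.2 and 23.3 CPM in WT and 1.35 and 0.826 in ABCG1KO (-4.92, 28.5% shared). Ndufab1, the mitochondrial acyl carrier protein, was at -2.22 (31.0% shared), Usmg5, a small subunit of ATP synthase, at -2.19 (41.9% shared), and Atpif1, the inhibitor of ATP synthase, at -0.58 (0.816% shared).

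Of 77 mitochondrial ribosomal protein genes, 7 fell (9.09%) and 2 rose (2.60%) in ABCG1KO, with a median of -0.12. The share that fell was thus close to the 8.83% of all genes, and the share that rose was below the 7.21% of all genes. The largest falls were Mrpl23 at -4.29 (76.4% shared) and Mrps36 at -3.49 (36.2% shared). Of 7 carriers and pores, Ucp2 rose (0.84) and Vdac3 fell (-1.02). Of 14 regulators of mitochondrial gene expression, 1 fell and 5 rose. Those that rose were Nrf1 (0.85), Gabpa (0.56), Gabpb1 (0.83), Polg (1.21) and Ppargc1b (1.10). Gabpa overlaps exons of the member Atp5j. Ppargc1a, a coactivator of mitochondrial biogenesis, fell, with 32, 52 and 78 counts in WT and 1 and 0 in ABCG1KO, too few for a fold change. Nrf1 and Gabpa code for transcription factors known to bind promoters of respiratory genes. Nrf1 was at 19.3, 16.5 and 22.02 CPM in WT, 26.5, 25.9 and 23.8 in LysM-DKO, and 34.7 and 34.5 in ABCG1KO, and the 3 groups did not overlap. Its fold change was called in ABCG1KO (edgeR adjusted p 0.0109) and not in LysM-DKO (0.40, edgeR adjusted p 0.371, Benjamini-Hochberg).

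The promoters of the members were searched for letters that such factors bind. Promoters of 300 bases, from 250 before to 50 after the start, were taken from RefSeq (GRCm38.p6), and 66 of 84 members had one. Both strands were searched for GCATGCGC (NRF1), CCGGAAG (the ETS family, with GABPA), AAGATGGC (YY1) and AAGGTCA (ESRRA). The closing AAG of the ETS letters is also how the last 2 begin. The NRF1 letters stood in 15.2% of member promoters, 5.76% of those of tested genes and 3.05% of all promoters of that length. The YY1 letters stood in 13.6%, 5.10% and 3.19%, the ESRRA letters in 12.1%, 3.98% and 5.38%, and the ETS letters in 24.2%, 19.1% and 9.93%. On the gene's own strand alone, the ETS letters stood in 7.58% of member promoters and in 10.7% of those of tested genes, so that the order turned. The ESRRA letters then stood in 4.55% and 2.15%, the NRF1 letters in 15.2% and 4.04%, and the YY1 letters in 13.6% and 3.51%.

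Of the 10 members with the NRF1 letters, 3 are shown because they span the range of fold changes in ABCG1KO: Sdhb at chr4:140961191-140961250, Cox6a1 at chr5:115349085-115349144 and Atp5g2 at chr15:102671054-102671113, each read on the gene's strand with the NRF1 letters in capitals.
Sdhb: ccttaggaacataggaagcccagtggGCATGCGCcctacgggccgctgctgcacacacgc
Cox6a1: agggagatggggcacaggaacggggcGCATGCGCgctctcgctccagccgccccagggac
Atp5g2: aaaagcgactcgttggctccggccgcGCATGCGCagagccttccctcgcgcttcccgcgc
The middle of the letters lies 50, 156 and 36 bases before the start. Sdhb and Cox6a1 had fold changes of 0.54 and 0.60 in ABCG1KO, and Atp5g2 had -7.00. Of the other 7, Atp5l, Atp5k and Uqcr11 fell, while Ndufa11 (-0.78), Ndufa6 (-0.79), Ndufa8 (0.38) and Uqcrc1 (-0.33) were not called. Members with the same letters were thus found on both sides of 0.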

How the data were processed

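RNA-seq values were the raw counts per gene symbol that the authors deposited, 1 table per library, counted with htseq-count per the file contents. The submitters' processing notes name STAR 2.7.9a, TopHat, HTSeq 0.11.2, DESeq2 1.30.1, limma and the build mm10, without their roles. Strand setting and annotation are not given in the sources used here, and the counter's 5 closing lines entered neither library sizes nor tests. Groups followed the sample titles.

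Genes were kept with filterByExpr, scaled with TMM factors and fitted in edgeR 4.0.16 (R 4.3.3) over all 8 libraries with robust quasi-likelihood tests, with Benjamini-Hochberg adjustment over 13821 genes and calls under 0.05. The fit was tested on simulated data. A count of 0 allows up to 3 counts, for counting error only. Transcript lengths, shared sequence (words of 50 bases, 1 transcript per gene) and coordinates came from GENCODE M21 (GRCm38, the assembly of mm10), which matched 24021 of 24421 symbols and all 84 members. Same-numbered libraries were not treated as pairs. DESeq2 1.42.0 served as an alternative.

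Members and lists were chosen with earlier results of these data known. Named in full were the 5 called members with the largest rise and fall per comparison and a group mean of at least 10 CPM, isoforms, complex II and the levels at both ends. Others are named as examples.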

Additional observations from a re-analysis of the deposited data

How the results depend on the processing

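DESeq2 brought its own size factors and filter with its test, and fitting 2 groups alone also changed which genes were tested. In LysM-DKO against WT, 1 member (Cox7a2l) in place of 0 was called with DESeq2 and with both groups fitted alone, and leaving out single libraries gave 0 to 1 members and medians of -0.33 to -0.14. The median was -0.0472 with the GC content and length offsets. In ABCG1KO against WT, the median was -0.11 with library size only, and leaving out single libraries gave medians of -0.64 to -0.13. Among genes under 1% shared sequence, where only 49 members were tested, 5 were called in place of 21, all lower. Of all 11319 genes in that fit, 683 were lower and 633 higher. In LysM-DKO against ABCG1KO, 1 member was called in place of 16 among genes under 1% shared sequence. There 553 of all 11319 genes were higher and 459 lower. Leaving out single libraries gave medians of -0.13 to 0.36. Other causes were not tested.

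Signs turned for members that were not called. In LysM-DKO against WT, library size only gave 0.0143 for Cox6a1, 0.11 for Atp5g1 and 0.0803 for Sdhb, and the offsets gave 0.15, 0.24 and 0.16 for these, 0.10 for Cox8a and -0.0233 for Sdha. Sdha was -0.0077 with RLE factors, -0.0077 with DESeq2, -0.0008 with both groups alone and -0.0058 among genes under 1% shared sequence, and -0.0702 to 0.0422 when single libraries were left out. Over the same omissions Atp5g1 lay between -0.19 and 0.21, Sdhb between -0.19 and 0.0225, and Sdhc between -0.30 and 0.0280. In ABCG1KO against WT, Cox8a and Sdhd turned to 0.0318 and 0.0766 with library size only and to 0.10 and 0.0687 with the offsets. When single libraries were left out, Cox4i1 lay between -0.17 and 0.53, Cox7a1 between -3.59 and 0.48, Atp5g3 between -0.0884 and 0.48, and Sdha between -0.0083 and 0.15.

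Same-numbered libraries of WT and LysM-DKO had deviations that correlated at 0.047, 0.413 and -0.00199, so the numbers were not taken as pairs. The replicate block left 0 members called in LysM-DKO (median -0.25), 22 in ABCG1KO (-0.37) and 15 in LysM-DKO against ABCG1KO (0.09). It cost Cox6a1 its call against WT (edgeR adjusted p 0.0547). Of 255 medians by complex, 236 stayed within the spread of the libraries. A count of 0 limits low members to 0.0708 to 0.0941 CPM.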
